A study of Danio rerio with 21 samples.

Results

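The cells described here are larval zebrafish cells that carried macrophage transcripts and little or no transcript of complement C1q. They were 469 of the 26802 cells past the filter (1.75%) in the 9 larval lineage-tracing libraries, which held 28589 barcodes. A cell was taken when it had at least 1000 UMIs (unique molecular identifiers, each standing for 1 captured mRNA), at most 20% mitochondrial UMIs and at least 1 UMI of at least 3 of the 6 genes mfap4, marco, mpeg1.1, csf1ra, grn1 and ctss2.1. At most 1 of the 3 C1q chains c1qa, c1qb and c1qc was detected, zap70 and itga2b were at 0, and haemoglobin symbols, a pattern that also takes in hbegfa and hbegfb, stayed under 5% of UMIs. These cells are called C1q-low cells below. Cells of the same gate with 2 or 3 chains are called C1q-positive cells, and there were 166 of them.

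In larvae for which the labels name no mutation, blood stem and progenitor cells received a heritable mCherry mark, and mCherry-positive cells were later sorted from whole larvae. Marking at 1 day post fertilization (dpf) is called the early label, marking at 2 dpf the mid label and marking at 3 dpf the late label. The early label was sampled at 2, 6 and 10 dpf, the mid label at 3, 6 and 10 dpf and the late label at 4, 6 and 10 dpf, with 1 library for each label and age. A second set of 4 libraries came from mosaic mutants (crispants) with the early label, collected at 8 dpf: slc24a5 crispants given 25 µM R848, rag1 crispants given 25 µM R848, untreated rag1 crispants and untreated slc24a5 crispants, the last being the pigment-gene control. R848 (resiquimod), given at 6 dpf, is an agonist of Toll-like receptors, and rag1 encodes a recombinase of lymphocyte receptor genes. The number of larvae pooled per library was not given in the labels, and mCherry marks descent from labelled progenitors, not a cell type.

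Macrophages take up dying cells and microbes, present antigen and release cytokines. C1q, made of 3 chains, opens the classical complement pathway, and resident tissue macrophages are a main source of it. In zebrafish, mfap4, marco (a scavenger receptor), mpeg1.1 (a pore-forming protein) and csf1ra (a receptor for the macrophage growth factors CSF1 and IL34) are widely used macrophage markers, while grn1 (a granulin) and ctss2.1 (a cathepsin S-like protease) are lysosomal products of several myeloid cells. Dendritic cells also use mpeg1.1 and MHC class II genes, and in mammals they depend on the cytokine receptor FLT3.

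By the rule itself, 292 of the 469 C1q-low cells (62.3%) had no C1q chain detected and 177 had 1 chain. C1q UMIs per cell had a median of 0 and a maximum of 7 in C1q-low cells, against a median of 4 and a maximum of 46 in C1q-positive cells. Counts were therefore small on each side of the line, and 122 of the 166 C1q-positive cells had just 2 chains. Of the C1q-low cells, 276 had exactly 3 of the 6 markers, 119 had 4, 62 had 5 and 12 had all 6, while 322 further cells missed the gate with 2 markers. The median cell had 17592 UMIs in the C1q-low class and 21415 UMIs in the C1q-positive class. The gap differed between libraries. In the order C1q-low and C1q-positive, medians were 14682.5 and 27263 UMIs in early 6 dpf and 24686 and 25865.5 UMIs in early 10 dpf. They were 23541 and 24962.5 UMIs in mid 10 dpf, 16280.5 and 18299 UMIs in late 10 dpf, and 11277 and 10085 UMIs in late 6 dpf. When each cell was thinned to 1000 UMIs before the gate, 117 C1q-low cells and 8 C1q-positive cells were left, so the class is one of detection at this depth.

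The larval libraries held between 8303823 and 47512292 UMIs. Barcodes were nearly private to their library: 96 occurred in more than 1 larval library, at most 10 between any pair, and 1 of them belonged to a C1q-low cell. By a simulated-doublet score 8 of the 469 cells were doublet-like. At least 2 UMIs each of at least 2 of the neutrophil genes mpx, lyz and npsn were found in 2 cells. Single neutrophil UMIs were not counted by this limit, and lyz had 66 UMIs in C1q-low cells of late 10 dpf. mCherry itself was detected in 376 C1q-low cells. It was detected in 84.5%, 85.6%, 96.8%, 89.2% and 87.0% of the C1q-low cells of the early label at 6 and 10 dpf, the mid label at 6 and 10 dpf and the late label at 10 dpf, but in 28.9% of those of the late label at 4 dpf and 63.0% of those of the late label at 6 dpf. In the other cells of those last 2 libraries mCherry was detected in 41.4% (4 dpf) and 73.2% (6 dpf). Among the libraries given here, those 2 also had the lowest median depth of C1q-low cells, at 6545 and 11277 UMIs. The part of depth in mCherry detection was not tested.

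C1q-low cells appeared in 8 of the 9 libraries. The early label held 0 of 939 cells at 2 dpf, which allows a share of up to 0.319% at 3 counts, 84 cells at 6 dpf (3.00% of cells, exact Clopper-Pearson interval at the 95% level 2.40 to 3.71) and 97 at 10 dpf (1.40%, 1.14 to 1.70). The mid label held 2 cells at 3 dpf (0.263%), 31 at 6 dpf (1.44%, 0.981 to 2.04) and 83 at 10 dpf (2.87%, 2.29 to 3.54). The late label held 45 cells at 4 dpf (1.83%, 1.34 to 2.44), 27 at 6 dpf (0.604%, 0.399 to 0.878) and 100 at 10 dpf (2.94%, 2.40 to 3.57). Intervals cover counting error only. The share at 10 dpf stood below that at 6 dpf with the early label and above it with the mid and late labels. With haemoglobin-rich cells left out of the denominator the order was the same in all 3 labels, at 2.71% (10 dpf) against 4.09% (6 dpf) for early, 4.48% against 1.93% for mid and 2.95% against 0.633% for late. These shares rest on 1 library per label and age and were not tested.

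Among the gated cells, C1q-low cells were the larger class in every library that held any. They made up 73.7%, 76.4%, 88.6%, 76.1%, 91.8%, 58.7% and 65.4% of gated cells in early 6 dpf, early 10 dpf, mid 6 dpf, mid 10 dpf, late 4 dpf, late 6 dpf and late 10 dpf. The widest interval, for late 6 dpf, ran from 43.2 to 73.0%. Median depth of C1q-low cells ran from 6545 UMIs (late 4 dpf) to 26736 UMIs (mid 6 dpf), and the effect of depth on these shares is given with the processing alternatives.

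**Figure D1:**
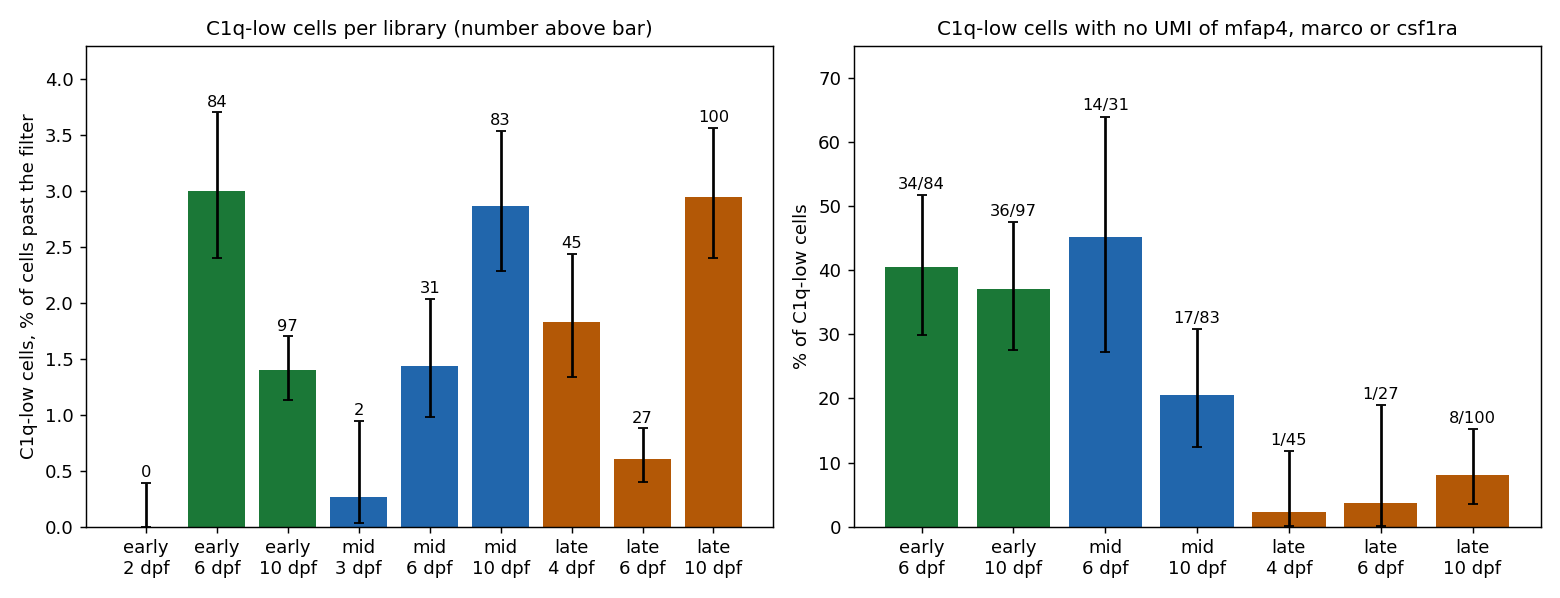
Left, C1q-low cells as a percent of cells past the filter in each larval library, with their number above each bar; right, the percent of C1q-low cells without a UMI of mfap4, marco or csf1ra in libraries with at least 20 such cells. Error bars are exact 95% intervals for counting error, colours mark the label (green early, blue mid, orange late), and the right panel shows 34 of 84 in early 6 dpf against 8 of 100 in late 10 dpf.

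The 6 markers did not occur evenly. mfap4 was detected in 53.5% of C1q-low cells, marco in 23.5%, mpeg1.1 in 43.9%, csf1ra in 57.4%, grn1 in 87.4% and ctss2.1 in 93.8%. As background, 144 lymphoid cells were taken (a UMI of zap70 and of lck, haemoglobin under 5%, median 10183 UMIs). By definition they had fewer than 3 of the 6 markers, so low detection in them is partly set in advance. In them mfap4, marco, mpeg1.1 and csf1ra were detected in none, grn1 in 4.17% and ctss2.1 in 27.1%. Detection of ctss2.1 alone therefore did not part the gated cells from lymphoid ones.

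The name macrophage did not hold for all of the gate. Of the 469 C1q-low cells, 112 (23.9%, interval 20.1 to 28.0) had no UMI of mfap4, marco or csf1ra, which by the rule means that they passed the gate through mpeg1.1, grn1 and ctss2.1. That interval covers counting error in the pooled cells only, and the share differed widely between libraries, as given below. Of the 166 C1q-positive cells, 1 was of this kind. These 112 are called mfap4/marco/csf1ra-negative C1q-low cells. They were 34 of 84 C1q-low cells in early 6 dpf (40.5%), 36 of 97 in early 10 dpf (37.1%), 14 of 31 in mid 6 dpf (45.2%) and 17 of 83 in mid 10 dpf (20.5%), but 1 of 45 in late 4 dpf, 1 of 27 in late 6 dpf and 8 of 100 in late 10 dpf. C1q was undetected in nearly all of them: 109 of 112 (97.3%) had no chain detected, against 183 of the other 357 C1q-low cells (51.3%). Their median depth was 14946.5 UMIs (mean of the 2 middle cells), against 19145 UMIs in the other C1q-low cells, and the part of depth in their missing markers was not tested.

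In sums over 4 libraries, which do not hold all of the 112, these cells carried antigen-presentation and dendritic-cell transcripts. They were not all alike, as the clusters given below show. The values that follow were pooled over the 4 libraries early 6 dpf, early 10 dpf, mid 10 dpf and late 10 dpf, are in CPM (UMIs per 1000000 UMIs of the summed cells), and are a description with no test, since the marker set was chosen after the values were seen. mhc2a, an MHC class II chain, stood at 1240.3 CPM in mfap4/marco/csf1ra-negative cells, 19.6 CPM in the other C1q-low cells and 26.6 CPM in C1q-positive cells. cd74a, the invariant chain that escorts MHC class II, stood at 1340.4, 37.8 and 33.3 CPM in the same order, and cd74b at 563, 37.1 and 36.7 CPM. Their levels in the other C1q-low cells were thus close to those in C1q-positive cells.

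flt3 was detected nearly only in the same cells, with 178 of its 179 UMIs in C1q-low cells coming from the mfap4/marco/csf1ra-negative ones. Its level was 120 CPM there, 0.169 CPM in the other C1q-low cells and 0 in C1q-positive cells. irf4a, a transcription factor of a dendritic-cell subset in mammals, had 57.1 CPM in mfap4/marco/csf1ra-negative cells and 0 UMIs in both other groups. ccl19a.1, a homologue of the mammalian ligand of CCR7, had 205 CPM there, 0.337 CPM in the other C1q-low cells and 0 in C1q-positive cells. runx3, a transcription factor of T, NK and dendritic cells in mammals, had 846, 69.4 and 38.8 CPM, and id2a, an inhibitor of DNA binding used by dendritic and innate lymphoid cells, 672, 94.4 and 88.9 CPM. The dendritic-like list summed to 1670.1 CPM in mfap4/marco/csf1ra-negative cells, of which id2a alone made 672 CPM, 154 CPM in the other C1q-low cells and 151 CPM in C1q-positive cells. Not every gene of the list went this way. In all C1q-low cells, batf3 was lower than in C1q-positive cells in early 10 dpf (3.05 against 5.01 CPM) and mid 10 dpf (2.57 against 7.39 CPM). zbtb46 was lower in early 6 dpf (66.9 against 78.9 CPM) and early 10 dpf (37.1 against 52.6 CPM). Each was higher in the remaining libraries of the 4. xcr1a.1, ccr7 and irf4b were at most 3.97 CPM in C1q-low cells there.

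The same cells held less il1b and csf3b than both other groups in each of the 4 libraries, but unevenly. Pooled, il1b, the inflammatory cytokine IL-1β, stood at 177 CPM in mfap4/marco/csf1ra-negative cells, 960.3 CPM in the other C1q-low cells and 723 CPM in C1q-positive cells. csf3b, a granulocyte colony stimulating factor, stood at 316, 1191.9 and 659.5 CPM. In mfap4/marco/csf1ra-negative cells of early 6 dpf, early 10 dpf, mid 10 dpf and late 10 dpf, il1b had 2.29, 48.2, 683 and 134 CPM. There csf3b had 0, 62.7, 1350 and 8.93 CPM, and the mid 10 dpf value lay near the 1467 CPM of C1q-positive cells of that library. spi1b, which encodes the myeloid transcription factor Pu.1, stood at 448 CPM in pooled mfap4/marco/csf1ra-negative cells, 875 CPM in the other C1q-low cells and 887 CPM in C1q-positive cells. The mfap4/marco/csf1ra-negative cells thus kept a myeloid regulator. The NK and innate lymphoid list summed to 399 CPM in them, 29.8 CPM in the other C1q-low cells and 13.1 CPM in C1q-positive cells, of which ccl38.6 alone made 388, 21.7 and 8.55 CPM. The T-lineage list summed to 1092.6, 293 and 317 CPM. This list holds ccr9a, a chemokine receptor gene, which had 584, 583, 106 and 452 CPM in all C1q-low cells of early 6 dpf, early 10 dpf, mid 10 dpf and late 10 dpf, against 381, 295, 22.2 and 406 CPM in C1q-positive cells. The whole list summed to 605, 616, 124 and 477 CPM in those C1q-low cells, against 403, 319, 45.8 and 429 CPM in C1q-positive cells, so ccr9a made up most of it in all of them but the mid 10 dpf C1q-positive cells. ccr9a did not pass in the class comparison (0.77, edgeR adjusted p = 0.216), lck was at most 4.80 CPM in C1q-low cells of these libraries, and rag1, rag2 and bcl11ba, and by the rule zap70, were at 0 in all C1q-low cells.

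**Figure D2:**
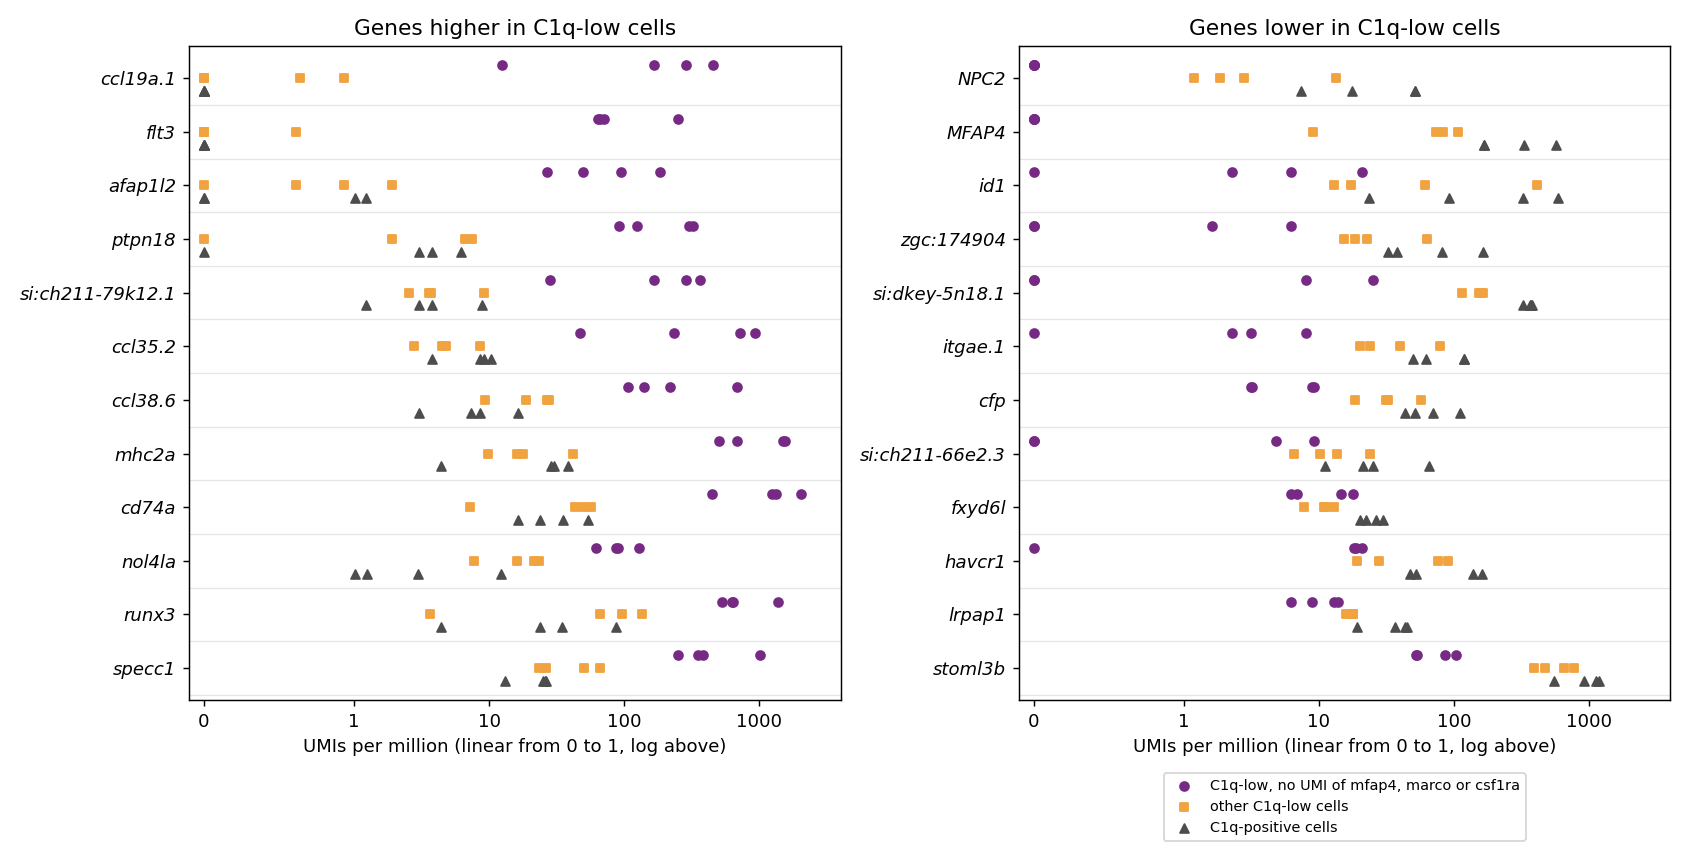
Level (CPM, axis linear from 0 to 1 and logarithmic above) of the 12 genes higher and the 12 genes lower in C1q-low cells, with 1 point per library and cell group for early 6 dpf, early 10 dpf, mid 10 dpf and late 10 dpf. In the left panel circles (C1q-low cells without mfap4, marco or csf1ra) stand apart from squares (other C1q-low cells) and triangles (C1q-positive cells), for example flt3 at 120, 0.169 and 0 CPM when pooled; in the right panel NPC2 and the MFAP4 feature are at 0 in the circles.

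C1q-low cells were compared with C1q-positive cells of the same library over all genes except the 6 markers, 3 C1q chains, zap70 and itga2b. The comparison used the 4 libraries with at least 20 cells of each class (early 6 dpf, early 10 dpf, mid 10 dpf and late 10 dpf, the order used for values below). The genes higher in C1q-low cells included 3 of 7 tested MHC class II and presentation genes, 4 of 7 dendritic-like genes and 3 of 15 chemokine ligands and receptors. Of the dendritic-like ones, ccl19a.1, flt3 and irf4a had no UMI in C1q-positive cells. The chemokine ccl34a.4 was lower in C1q-low cells, as were an NPC2 feature, cfp and a paralogue of mfap4. By edgeR's quasi-likelihood test on UMIs summed per library and class, with the library as a block, 40 of 6522 genes were higher (percent called 0.613%) and 16 were lower (0.245%) at a Benjamini-Hochberg adjusted p below 0.05 and at least 2-fold. The classes were split by C1q in the same cells, so genes that go with C1q were selected along with it, and the calls describe that split. Since 112 C1q-low cells but 1 C1q-positive cell lacked mfap4, marco and csf1ra, the fit was repeated with only cells of both classes that had a UMI of at least 1 of those 3. There 1 gene of 5864 was higher (mmp9) and 3 were lower (MFAP4, NPC2 and si:dkey-5n18.1). Of the 40 higher genes, 18 were expressed enough to be tested in that fit, 16 kept their direction and none passed, with a median log2 fold change of 0.78. All 16 lower genes were tested and kept their direction, with a median of -1.21 (log2).

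The antigen-presentation genes mhc2a and cd74a were among the higher genes, although others had larger fold changes. mhc2a had 461, 431, 90.9 and 61.0 CPM in C1q-low cells, against 38.2, 28.8, 4.44 and 30.4 CPM in C1q-positive cells. The classes did not overlap, and early-label C1q-low cells held the highest levels. The difference was 3.00 ± 0.42 (log2 fold change ± SE, 4 library pairs, edgeR adjusted p = 0.00945), and it was -0.22 (adjusted p = 0.948) among cells with mfap4, marco or csf1ra. cd74a had 620.1, 368, 109 and 136 CPM in C1q-low cells, against 54.2, 23.8, 16.3 and 35.4 CPM in C1q-positive cells, with no overlap. Its difference of 2.98 ± 0.30 (edgeR adjusted p = 0.00237) was 0.25 (adjusted p = 0.9503) among cells with mfap4, marco or csf1ra. Of the list of MHC class II and presentation genes, 3 of 7 tested rose (cd74a, mhc2a and cd74b), none fell, and the median log2 fold change was 1.203, beside -0.005 over all genes tested. mhc2dab, another MHC class II chain, did not pass (1.203, adjusted p = 0.435).

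Of the dendritic-like list, 4 of 7 tested genes rose (ccl19a.1, flt3, irf4a and id2a), beside 0.613% of all genes tested. None fell, and the median was 3.70. ccl19a.1, flt3 and irf4a had no UMI in C1q-positive cells, so they reached the test only through their UMIs in C1q-low cells. The count and the median are therefore partly set by which genes could be tested. flt3 had 72.2, 17.4, 11.3 and 4.79 CPM in C1q-low cells and no UMI in C1q-positive cells of any of the 4 libraries. With 179 UMIs against 0, its level was at least 26.3-fold higher in C1q-low cells, taking 3 UMIs over the group as the limit (edgeR adjusted p = 0.00792). ccl19a.1 had 48.4, 78.0, 2.05 and 31.1 CPM in C1q-low cells and no UMI in C1q-positive cells, at least 45.3-fold higher (308 UMIs, edgeR adjusted p = 0.00284). irf4a, with 85 UMIs in C1q-low cells against 0 in C1q-positive cells, was at least 12.5-fold higher. None of these 3 genes had enough UMIs to be tested among cells with mfap4, marco or csf1ra. The chemokine genes ccl38.6 and ccl35.2 rose as well. ccl38.6 had 69.6, 205, 46.2 and 24.5 CPM in C1q-low cells, against 8.63, 16.3, 7.39 and 3.04 CPM in C1q-positive cells, a difference of 3.13 ± 0.28 (edgeR adjusted p = 0.00145). ccl35.2 differed by 3.17 ± 0.61 (adjusted p = 0.0389). Of 15 tested chemokine ligands and receptors 3 rose and 1, ccl34a.4, fell. Members of this family are near-copies, and reads may have been divided among them.

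The transcription factor gene runx3 had 497, 221, 107 and 124 CPM in C1q-low cells, against 87.5, 23.8, 4.44 and 34.4 CPM in C1q-positive cells, and the classes did not overlap (2.64 ± 0.29, edgeR adjusted p = 0.00284). Among cells with mfap4, marco or csf1ra it was 1.06 (adjusted p = 0.219). specc1 (2.43), nol4la (2.71), ptpn18 (a tyrosine phosphatase, 3.79), si:ch211-79k12.1 (3.18) and afap1l2 (an actin-filament adaptor) made up the rest of the 12 genes named by size of change. Their adjusted p-values lay between 0.00331 and 0.0299. afap1l2 had 149 UMIs in C1q-low cells against 2 UMIs in C1q-positive cells, a ratio of levels of 32.9 with a counting interval of 8.94 to 274.

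The NPC2 feature ENSDARG00000096979 had the largest fall of the named genes. NPC2 is a lysosomal cholesterol carrier, and the annotation holds another, more abundant feature for it, npc2 ENSDARG00000090912. The first had 1.99, 0.872, 1.54 and 12.6 CPM in C1q-low cells, against 51.8, 17.5, 7.39 and 51.6 CPM in C1q-positive cells. Within each library it was lower in C1q-low cells, although the late 10 dpf C1q-low cells stood above the mid 10 dpf C1q-positive cells. The difference was -3.10 ± 0.44 (log2, edgeR adjusted p = 0.00945) and -2.77 (adjusted p = 0.0290) among cells with mfap4, marco or csf1ra. The second, npc2, had 231, 192, 170.5 and 191 CPM in C1q-low cells, against 208, 234, 166 and 265 CPM in C1q-positive cells. The ranges overlapped, and it did not pass (-0.24 ± 0.14, adjusted p = 0.581). In the crispant libraries npc2 stood at -0.95 (adjusted p = 0.00385), short of a 2-fold difference. Reads may have been divided between the pair. The MFAP4 feature ENSDARG00000088745, a paralogue of the rule gene mfap4, had 75.5, 6.54, 69.3 and 68.2 CPM in C1q-low cells, against 329, 168, 167 and 567 CPM in C1q-positive cells, with no overlap. It differed by -2.72 ± 0.35 (adjusted p = 0.00690) and by -2.36 (adjusted p = 0.0290) among cells with mfap4, marco or csf1ra. The annotation holds several such features, and reads may have been divided among them and mfap4, so this value is not independent of the rule. si:dkey-5n18.1 had 117, 85.9, 138 and 142 CPM in C1q-low cells, against 362, 376, 370 and 325 CPM in C1q-positive cells, with no overlap. Its difference was -1.69 ± 0.16 (edgeR adjusted p = 0.00145), and -1.34 (adjusted p = 0.00267) among cells with mfap4, marco or csf1ra.

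stoml3b, a stomatin-like membrane protein gene, was among the highest of the lower genes, with 475, 365, 344 and 725 CPM in C1q-low cells, against 922, 1184, 547 and 1133 CPM in C1q-positive cells (-1.09 ± 0.16, edgeR adjusted p = 0.00945). The ranges overlapped across libraries, but the sign was the same in all 4. cfp, which encodes properdin, the stabiliser of the alternative complement pathway, differed by -1.33 ± 0.23 (adjusted p = 0.0256), and havcr1, a TIM-family receptor for phosphatidylserine on dying cells, by -1.21 ± 0.16 (adjusted p = 0.007995). id1 (-1.79), zgc:174904 (-1.69), itgae.1 (an integrin chain, -1.55), si:ch211-66e2.3 (-1.32), fxyd6l (an ion-pump regulator, -1.28) and lrpap1 (a chaperone of lipoprotein receptors, -1.199) completed the 12 lower genes named by size. In cells with mfap4, marco or csf1ra these 8 genes and stoml3b were still negative but did not pass: stoml3b was at -0.78 (adjusted p = 0.0641), cfp at -1.06 (0.101) and havcr1 at -1.02 (0.0547).

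Few genes of the wider macrophage lists passed. Of 22 tested macrophage genes outside the rule none rose and 2 fell (ccl34a.4 and havcr1). Their median was -0.35, and 6 of them had a positive sign. Over all genes tested 0.613% were higher and 0.245% lower, with a median of -0.005. Of 18 tested lysosome and protease genes none passed and 16 had a negative sign, with a median of -0.37; ctsz (-0.97, adjusted p = 0.0103), ctsla (-0.96, 0.0103) and ctsd (-0.82, 0.0138) passed the p-value threshold but not the 2-fold one. None of 17 tested inflammatory genes passed in either direction (median -0.18), nor did any of 13 neutrophil genes (-0.38), 10 heat shock genes (-0.07) or 5 stem and progenitor genes (1.14, all 5 positive). At the shares called over all genes, most lists of these sizes would have no call, so its absence says little about them. il1b differed by -0.10 (adjusted p = 0.831) and csf3b by 0.25 (adjusted p = 0.568). mmp9, a matrix metalloprotease gene, had 149, 78.9, 22.1 and 119 CPM in C1q-low cells, against 104, 55.1, 5.91 and 41.5 CPM in C1q-positive cells. It did not pass in the whole class (0.88, adjusted p = 0.149) and was the single higher gene among cells with mfap4, marco or csf1ra (1.18, adjusted p = 0.0472). It was named after its values were seen.

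Leaving out 1 library moved the counts by more than 1.5 times in every case. Without early 6 dpf 9 genes were higher and 5 lower, without early 10 dpf 12 and 7, without mid 10 dpf 86 and 30, and without late 10 dpf 15 and 5. Of the 3 genes lower in both fits, and of mhc2a, cd74a and runx3, none changed sign in any of these.

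The crispant libraries, which the larval comparison did not use, offered the same gate. In the order slc24a5 R848, rag1 R848, rag1 untreated and slc24a5 untreated, they held 2234, 1092, 120 and 157 C1q-low cells, against 698, 372, 81 and 68 C1q-positive cells. Of the C1q-low cells 3.45%, 7.05%, 13.3% and 12.1% had no UMI of mfap4, marco or csf1ra, beside 40.5% and 37.1% in the early-label larvae of 6 and 10 dpf. Those larvae differ from the crispants in age, mutation and version of the counting software, and the shares are set side by side with no test. Here 953 of 13008 genes were higher (percent called 7.33%) and 297 were lower (2.28%). With the untreated libraries alone, 9 were higher and 31 lower of 8129.

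Most genes called in the larval comparison had the same direction in the crispants. The crispant classes were split by C1q in the same way, so genes that go with C1q were selected in both sets. The shared direction is therefore not an independent test of the larval calls. All 16 larval lower genes had the same sign in the crispants, 12 of them passed, and their median log2 fold change was -1.48, beside 0.027 over all genes tested. Of the 40 larval higher genes 38 could be tested, 35 had the same sign and 10 passed, with a median of 0.77. NPC2 ENSDARG00000096979 had 61.3, 120, 103 and 42.8 CPM in C1q-low cells of slc24a5 R848, rag1 R848, rag1 untreated and slc24a5 untreated crispants, against 432, 724, 247 and 151 CPM in C1q-positive cells, with no overlap (-2.16 ± 0.21, edgeR adjusted p = 0.00292). MFAP4 ENSDARG00000088745 had 376, 361, 568 and 313 CPM in C1q-low cells, against 1872, 1782, 1319.7 and 841 CPM in C1q-positive cells, likewise without overlap (-1.82 ± 0.18, adjusted p = 0.00292). si:dkey-5n18.1 differed by -2.28 ± 0.21 (adjusted p = 0.00280), and its levels in R848 C1q-low cells (63.3 CPM in slc24a5 and 79.9 CPM in rag1) were below those in untreated C1q-low cells (452 CPM in rag1 and 358 CPM in slc24a5). Each of these 3 also passed in the untreated libraries alone and among cells with mfap4, marco or csf1ra.

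The presentation genes depended on the marker set in the crispants as well. mhc2a had 25.0, 23.4, 117 and 101 CPM in C1q-low cells of slc24a5 R848, rag1 R848, rag1 untreated and slc24a5 untreated crispants, against 6.05, 4.99, 58.2 and 40.7 CPM in C1q-positive cells. It was higher in C1q-low cells of each library, while the R848 libraries stood below the untreated ones in both classes (1.64 ± 0.26, edgeR adjusted p = 0.00638). Among cells with mfap4, marco or csf1ra the difference was 0.33 (adjusted p = 0.795), and that of cd74a was 0.34 (adjusted p = 0.702), beside 1.41 in the whole class (adjusted p = 0.0138). flt3 had 9.63, 12.1, 17.6 and 11.1 CPM in C1q-low cells, against 4.55, 3.95, 0 and 0 CPM in C1q-positive cells (1.88 ± 0.44, edgeR adjusted p = 0.0234). Unlike mhc2a and cd74a, flt3 still passed among crispant cells with mfap4, marco or csf1ra, at 1.07 (edgeR adjusted p = 0.0488). ccl19a.1 (2.11, adjusted p = 0.0714), ccl35.2 (0.46, 0.175) and ccl38.6 (0.22, 0.394) did not pass in the crispants. The last pair had the opposite sign among cells with mfap4, marco or csf1ra.

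Lysosomal proteases fell in the crispant C1q-low cells: 9 of 19 tested genes of the list were lower, none higher, with a median of -0.99. Over all genes tested there, 7.33% were higher and 2.28% lower. ctsd, an aspartic protease gene, had 593, 667, 2346 and 1396 CPM in C1q-low cells of slc24a5 R848, rag1 R848, rag1 untreated and slc24a5 untreated crispants, against 1769.8, 2028, 3725 and 2529 CPM in C1q-positive cells (-1.18 ± 0.16, edgeR adjusted p = 0.00444). Markers of other lineages moved with this comparison. Of 16 tested stem and progenitor genes 14 were higher in C1q-low cells (median 3.02), as were 9 of 12 erythroid genes (2.34), 5 of 18 neutrophil genes with 1 lower (1.47) and 6 of 11 NK and innate lymphoid genes (2.04). Higher too were 5 of 10 thrombocyte, 3 of 10 T-lineage (with 1 lower), 3 of 8 epithelial, 2 of 6 mesenchymal, 1 of 5 endothelial and 1 of 2 neural genes. Of 2 tested B-lineage genes none passed. lyz, a neutrophil lysozyme, had 5261, 5666, 870 and 434 CPM in C1q-low cells, against 177, 150.3, 414 and 65.4 CPM in C1q-positive cells of the same libraries, so the excess was widest with R848. The part of these lineages in the 953 higher genes was not tested.

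**Figure D3:**
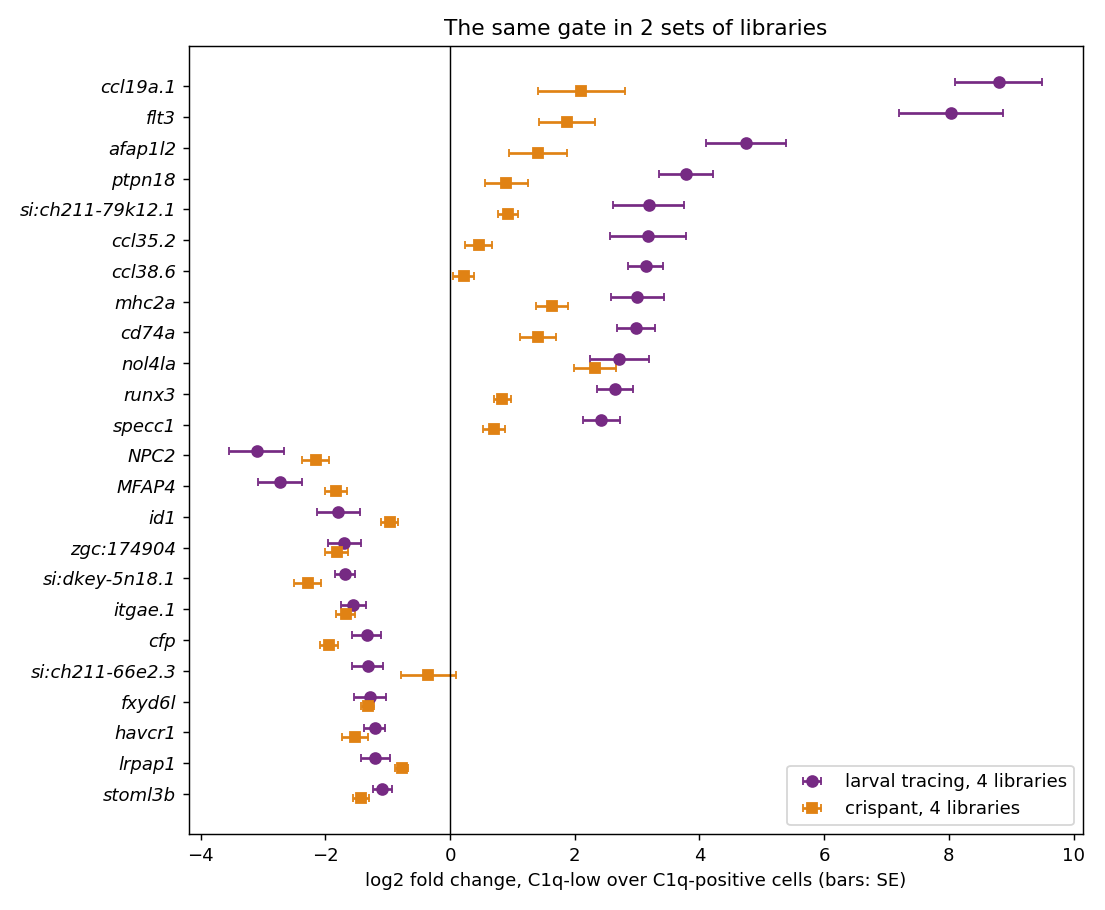
Log2 fold change of C1q-low over C1q-positive cells (points, with SE bars) for the 24 genes named in the larval comparison, in the 4 larval libraries (purple circles) and in the 4 crispant libraries (orange squares). Lower genes such as NPC2 (-3.10 larval, -2.16 crispant) lie on the same side in each set, while ccl35.2 and ccl38.6 lie near 0 in the crispants (0.46 and 0.22).

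The C1q-low cells were also grouped by their own expression, into 8 clusters that are a description and carry no test. Clusters 5 (62 cells) and 7 (35 cells) held 96 of the 112 mfap4/marco/csf1ra-negative cells. Cluster 5 was led by mhc2a, cd74a and runx3, and cluster 7 by anxa3b, cadm4 and spock3, with flt3 (300 CPM against 11.1 CPM in the other C1q-low cells) and id2a (1146.5 against 175 CPM) also among its 10 leading genes. Both held mhc2a, at 1802 CPM in cluster 5 and 862 CPM in cluster 7. They were unlike in runx3 (1445 and 56.1 CPM), flt3 (102 and 300 CPM) and irf4a (33.3 and 188 CPM). The NK and innate lymphoid list summed to 632 and 48.3 CPM in the same order. No cell of these 2 clusters had a UMI of mfap4 or marco, and 1.03% had csf1ra. Genes of the rule were not left out of the clustering, so the match between clusters and marker set is not independent of them. Together they made up 40.5% of C1q-low cells in early 6 dpf, 28.9% in early 10 dpf, 45.2% in mid 6 dpf and 13.3% in mid 10 dpf, but 2.22%, 3.70% and 7.0% in late 4, 6 and 10 dpf.

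Cluster 2 (80 cells) was led by ccl34b.1, apoc1, ctsl.1, fabp11a, apoeb and ctsk, that is, by a chemokine, lipid carriers and cathepsins. apoeb stood at 1486.8 CPM in it, against 1.5 CPM in the other C1q-low cells, and lysosome and protease genes summed to 23660.0 CPM. In it mfap4 was detected in 75%, marco in 68.8%, csf1ra in 76.3%, mpeg1.1 in 51.3%, grn1 in 62.5% and ctss2.1 in 96.3% of cells, at a median of 6748 UMIs, the lowest of the 8 clusters. It held 37 of the 45 C1q-low cells of late 4 dpf, 14 of 27 of late 6 dpf and 13 of 100 of late 10 dpf, and 16 cells of the other libraries. mCherry was detected in 45% of its cells, the lowest of the 8 clusters, beside 77.9 to 100% in the others. Its level was not the lowest, at 338 CPM in cluster 2, beside 182 to 512 CPM in the others. Depth and late label moved with this cluster, and their part in it was not tested.

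The remaining clusters were cells of the same gate that differed in their leading transcripts. Cluster 3 (71 cells, 47 of them from mid 10 dpf) was led by cxcl8a, a neutrophil-attracting chemokine, and held csf3b and il1b at 2447 and 1659 CPM, against 530.3 and 455 CPM in the other C1q-low cells. Cluster 1 (98 cells, 37 from late 10 dpf) was led by mmp9, cxcl8b.1 and mid1ip1l, with cxcl19 among its leading genes. Cluster 4 (68 cells) was led by itga5, an integrin chain that binds fibronectin, and stoml3b. Cluster 6 (49 cells, 29 from early 10 dpf) was led by haemoglobin genes, with hsp70 genes following, and held 4 of the 8 doublet-like C1q-low cells. In it 9 cells lacked mfap4, marco and csf1ra, and flt3 was at 0. Cluster 8 (6 cells) was led by histone genes and had the highest summed cell cycle list, at 3348 CPM.

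**Figure D4:**
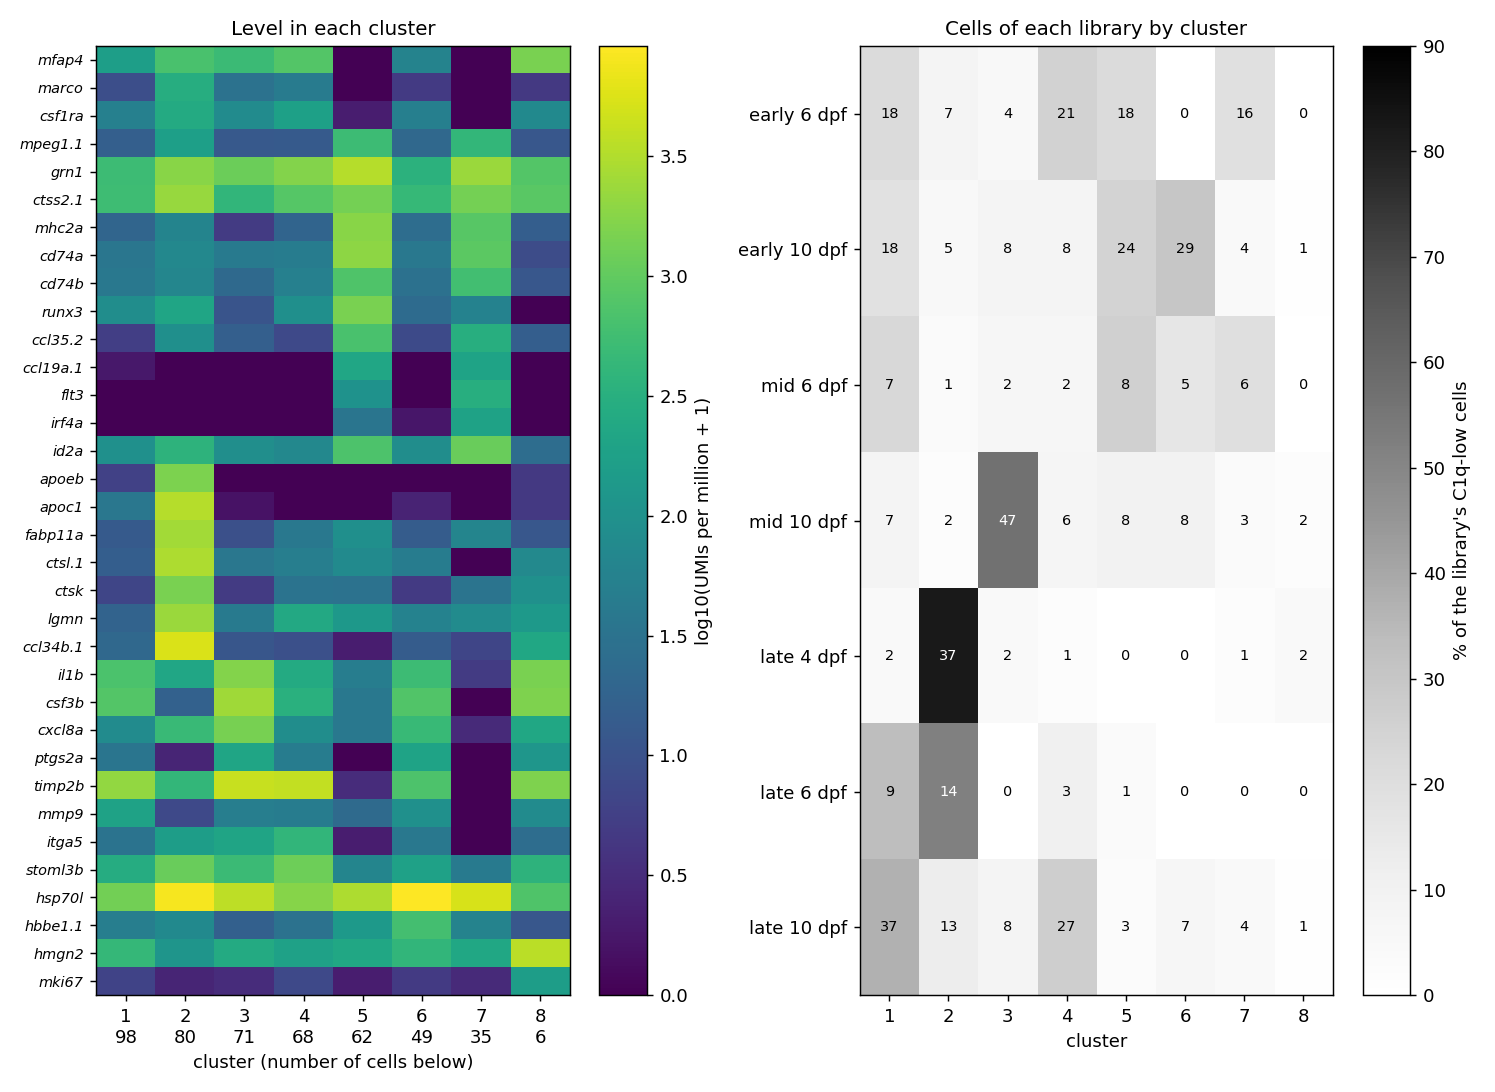
Left, level of marker and leading genes (log10 of CPM + 1) in the 8 clusters of C1q-low cells; right, the number of cells of each library in each cluster, shaded by percent of that library's C1q-low cells. Clusters 5 and 7 are dark for mfap4, marco and csf1ra and bright for mhc2a and cd74a, and cluster 2 holds 37 of the 45 cells of late 4 dpf.

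Across age, C1q-low cells at 10 dpf were compared with those at 6 dpf over the 3 labels, which stand in for replicates in an additive fit of label and age (6 libraries, 2 residual degrees of freedom). No gene of 7286 passed by edgeR's quasi-likelihood test in either direction (percent called 0.0%), with 610 genes at an unadjusted p below 0.05. DESeq2 called 6 higher and 3 lower on the same sums. ifitm1, an interferon-induced transmembrane protein gene named here after its values were seen, came closest: it had 62.3, 113 and 184 CPM at 10 dpf in early, mid and late label, against 6.62, 13.8 and 8.06 CPM at 6 dpf. The ages did not overlap, and the difference was 3.73 ± 0.39 (log2, edgeR adjusted p = 0.0508, DESeq2 adjusted p = 2.855e-09).

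il1b had 748, 1364 and 385 CPM at 10 dpf in early, mid and late label, against 626, 289 and 88.6 CPM at 6 dpf. It was higher at 10 dpf within each label, the ranges overlapped across labels, and the difference did not pass in edgeR (1.81 ± 0.40, adjusted p = 0.361), while DESeq2 called it (adjusted p = 0.0113). ptgs2a, a prostaglandin synthase gene, had 80.2, 240.3 and 42.5 CPM at 10 dpf, against 31.1, 47.5 and 2.69 CPM at 6 dpf, and was likewise called by DESeq2 alone (adjusted p = 0.00194). Of 15 inflammatory genes tested, 13 had a positive sign and none passed in edgeR, with a median of 0.64 beside 0.025 over all genes. All 10 heat shock genes were positive without passing (median 0.92).

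**Figure D5:**
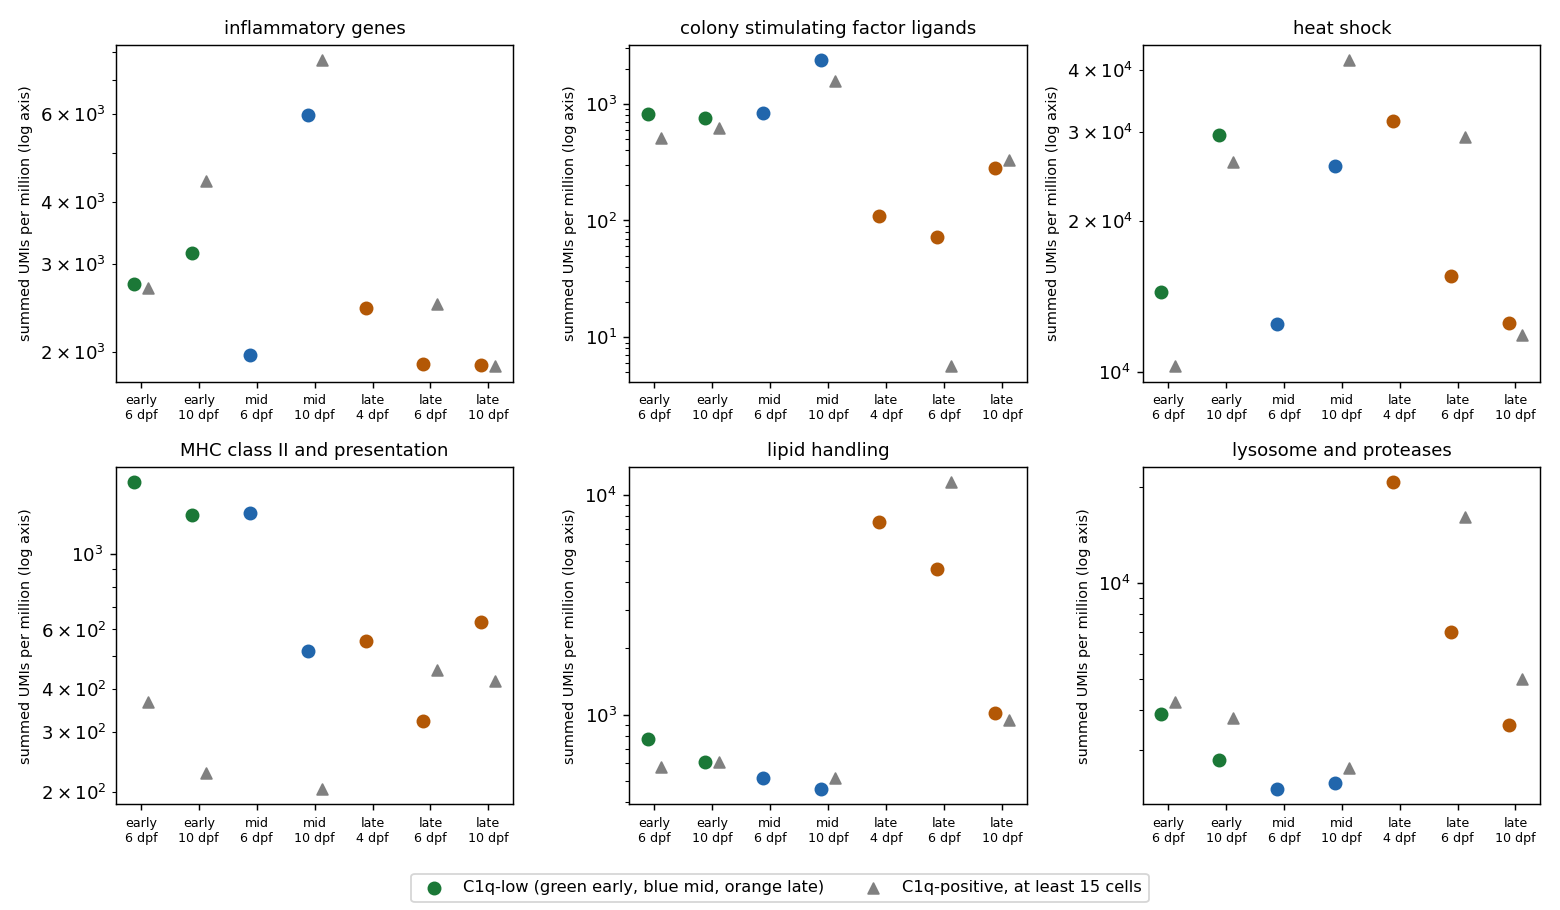
Summed level of 6 gene lists (CPM, log axes) in C1q-low cells of 7 libraries (coloured circles by label) and in C1q-positive cells where a library held at least 15 (grey triangles). Among C1q-low cells, the mid 10 dpf library is highest for inflammatory genes (5975 CPM) and colony stimulating factor ligands (2372 CPM), and late 4 dpf and late 6 dpf are highest for lipid handling (7549 and 4616 CPM).

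Single libraries stood out in these sums. The inflammatory list summed to 5975 CPM in C1q-low cells of mid 10 dpf, beside 1881 to 3157 CPM in the other 6 libraries. C1q-positive cells of mid 10 dpf held 7695 CPM, the highest of that class as well. csf3b had 2213 CPM in C1q-low cells of mid 10 dpf, beside 56.4 to 796 CPM elsewhere, and the colony stimulating factor ligands summed to 2372 CPM there. csf1a, csf1b and il10 were at 0 in C1q-low cells of all 7 libraries. Lipid handling genes summed to 7549 CPM in late 4 dpf and 4616 CPM in late 6 dpf, beside 458 to 1019 CPM in the other 5. apoeb had 0, 5.23, 0, 0, 1259, 827 and 28.1 CPM in C1q-low cells of early 6 dpf, early 10 dpf, mid 6 dpf, mid 10 dpf, late 4 dpf, late 6 dpf and late 10 dpf. In C1q-low cells it was thus close to absent outside the late label. Cells outside the gate held 0.558, 7.15, 3.50, 7.04, 257.5, 6.69 and 60.7 CPM in the same order, and the 4 C1q-positive cells of mid 6 dpf held 273.5 CPM.

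Early-label C1q-low cells were compared with late-label ones at 6 and 10 dpf in the same fit, the 2 ages standing in for replicates. The late libraries also differ from the others in the version of the counting software, so label and version cannot be told apart. By edgeR 1 gene of 7286 was higher (percent called 0.0137%) and 1 was lower (0.0137%), with 573 genes at an unadjusted p below 0.05. hbbe1.1, a haemoglobin gene, had 80.8 and 309.5 CPM at 6 and 10 dpf with the early label, against 2.69 and 0 CPM with the late label (adjusted p = 0.0407). Haemoglobin was capped by the rule but still tested, so this call is not independent of the rule. The other cells of these libraries held 36171 and 16727 CPM of hbbe1.1 at 6 and 10 dpf with the early label, against 4563 and 207 CPM with the late label. With the early label C1q-low cells held more hbbe1.1 at 10 dpf than at 6 dpf, while the other cells held less. Of the clusters of C1q-low cells, cluster 6 held the most hbbe1.1 (592 CPM), and 29 of its 49 cells came from early 10 dpf. The part of free RNA was not tested. fthl30, a ferritin heavy-chain-like gene with near-copies, had 5.30 and 0 CPM with the early label, against 258 and 21.5 CPM with the late label (-5.72 ± 0.56, adjusted p = 0.0316). Neither call was made among cells with mfap4, marco or csf1ra (adjusted p = 0.0524 for each). The hbbe1.1 call was also lost without doublet-like cells (adjusted p = 0.203), with 0 of 3 C1q chains (0.206), after thinning (0.0507), without early 6 dpf (0.197) and without early 10 dpf (0.375). The fthl30 call was lost with 0 of 3 chains (0.189), without early 6 dpf (0.224) and without early 10 dpf (0.158).

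The shares of mfap4/marco/csf1ra-negative cells ran with these labels. All 7 tested MHC class II and presentation genes and all 7 tested dendritic-like genes had a positive sign for early over late, with medians of 1.19 and 1.66, and none passed. In cells with mfap4, marco or csf1ra the MHC class II list summed to 309 and 245 CPM at 6 and 10 dpf with the early label, against 253 and 426 CPM with the late label, so the order was not kept. csf3b had 778 and 701 CPM with the early label, against 56.4 and 269 CPM with the late label, and did not pass (2.58 ± 0.54, edgeR adjusted p = 0.277).

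Early-label C1q-low cells against mid-label ones gave no call in either direction by edgeR (percent called 0.0%, 361 genes at an unadjusted p below 0.05), and DESeq2 gave 3 higher (tnfrsf11b, ccl35.2 and fthl28) and 3 lower (saa, her9 and hist1h4l). tnfrsf11b, a decoy receptor of the TNF family, had 97.4 and 74.6 CPM at 6 and 10 dpf with the early label, against 3.75 and 1.54 CPM with the mid label (4.98 ± 0.53, edgeR adjusted p = 0.0582). The labels did not overlap. These comparisons of label and age share libraries, and each is given by its own values.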

How the data were processed

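The deposited matrices hold raw UMI counts per gene and barcode, made by the authors with Cell Ranger 7.1.0 (early and mid label), 7.0.1 (late label) and 8.0.1 (crispants), per the file headers. Libraries used the single-cell 3′ kit 3.1 for larval tracing, per the labels. The aligner settings were not given in the sources used here. Counts were used as deposited over 27758 features, features sharing a symbol being kept apart by identifier.

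Counts were summed per library and class for sums of at least 20 cells and tested with edgeR 4.0.16 (TMM, filterByExpr, quasi-likelihood F-test, Benjamini-Hochberg over all genes tested), and with DESeq2 1.42.0 as an alternative, in R 4.3.3. Genes of the rule took part in no call. In the class comparisons the library is a block because both classes come from the same library. The script was tested on simulated data. Clustering used 1500 variable genes, 15 principal components, 15 neighbours and Leiden resolution 0.8 (igraph 0.11.9, Python 3.11.15). Genes of the rule were not excluded from the variable genes. CPM are UMIs per 1000000 UMIs of the sum.

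Named genes are the 12 with the largest fold change in each direction (8 for the labels) among called genes with at least 20 CPM in the higher group and the same sign in every pair. Members of the gene lists are named besides. The cells, lists and rules were chosen with earlier results of these data known. With 1 library per group, p-values measure the spread of the class difference between libraries, or, for age and label, the spread left after both terms. Adult libraries were not used here, and exact intervals cover counting error only.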

Additional observations from a re-analysis of the deposited data

Results flagged for a closer look

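The share of C1q-low cells moved in opposite directions with age between labels. The value at 10 dpf minus that at 6 dpf was -1.61 percentage points for cells labelled early, 1.43 for mid and 2.34 for late. Each value rests on 1 library per age, so the difference between labels was not tested. The directions were the same without haemoglobin-rich cells. After thinning, shares were 0.332% at 10 dpf against 0.787% at 6 dpf (early, 23 and 22 cells), 0.242% against 0.232% (mid, 7 and 5 cells) and 0.736% against 0.403% (late, 25 and 18 cells). At equal depth the rise with the mid label was thus hardly visible.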

How the results depend on the processing

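For C1q-low against C1q-positive cells (40 genes higher, 16 lower), no filter on low counts gave 158 and 34, cells with 0 of 3 chains 92 and 56, thinning to 1000 UMIs 5 and 3, at least 15 cells per class 21 higher, a required UMI of mfap4, marco or csf1ra 1 and 3, and no replicate block (no library block) 0 and 0, with 278 genes at an unadjusted p below 0.05; leaving out 1 library gave 9 to 86 higher and 5 to 30 lower. DESeq2 gave 32 and 15. Reversed among cells with mfap4, marco or csf1ra were mhc2a (-0.22) and, in the crispants, ccl35.2 (-0.11) and ccl38.6 (-0.065). The crispant counts (953 and 297) were 9 and 31 in untreated libraries. For 10 against 6 dpf (0 and 0), DESeq2 gave 6 and 3, no filter 82 and 36, at least 2000 UMIs 1 higher, and leave-one-out 0 to 70 higher and 0 to 40 lower. For early against late (1 and 1), DESeq2 gave 10 and 14, no filter 100 and 54, 0 of 3 chains 0 and 0, at least 2000 UMIs 3 and 4, doublet removal 0 higher, thinning 0 higher, required mfap4, marco or csf1ra 0 and 0, and leave-one-out 0 to 111 higher and 0 to 65 lower. For early against mid (0 and 0), DESeq2 gave 3 and 3, no filter 54 and 13, 0 of 3 chains 3 and 1, at least 2000 UMIs 1 higher, and leave-one-out 0 to 48 higher and 0 to 34 lower. A fit that leaves out 1 library of the 6 has 1 residual degree of freedom less, and the cause of its higher counts was not tested. The alternatives with at least 15 cells and with a required marker were chosen after seeing the data.

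Only shares that left the exact interval of the main setting are listed here, and those not listed stayed inside it. Shares of C1q-low cells under the stricter 0 of 3 chains were 1.97% (early 6 dpf), 1.05% (early 10 dpf), 1.49% (mid 10 dpf), 1.18% (late 4 dpf), 0.358% (late 6 dpf) and 1.41% (late 10 dpf). Thinned, they were 0.787% (early 6 dpf), 0.332% (early 10 dpf), 0.232% (mid 6 dpf), 0.242% (mid 10 dpf), 0.650% (late 4 dpf) and 0.736% (late 10 dpf). Without haemoglobin-rich cells they were 4.09% (early 6 dpf), 2.71% (early 10 dpf), 4.48% (mid 10 dpf) and 3.36% (late 4 dpf), and with at least 2000 UMIs 1.72% (early 10 dpf) and 3.60% (mid 10 dpf). Shares of gated cells with 0 of 3 chains were 48.2%, 57.5%, 39.4%, 59.2%, 34.8% and 31.4% in early 6 dpf, early 10 dpf, mid 10 dpf, late 4 dpf, late 6 dpf and late 10 dpf. Thinned, shares with at most 1 chain were 100% in early 6 and 10 dpf, mid 6 and 10 dpf and late 4 dpf, 81.8% in late 6 dpf and 86.2% in late 10 dpf. Depth therefore limits the class itself: at 1000 UMIs most C1q chains go undetected.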
